A study of Homo sapiens with 2 samples.

Results

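The 10 genes described here encode the sestrins (SESN1, SESN2 and SESN3), the stress protein DDIT4 (also called REDD1), both subunits of the tuberous sclerosis complex (TSC1 and TSC2), a catalytic and both regulatory beta subunits of AMP-activated protein kinase (AMPK, here PRKAA1, PRKAB1 and PRKAB2), and DEPTOR, which binds the kinase mTOR itself. They were chosen by name, and every probe set annotated to 1 of them alone was used, which gave 26 of the 41091 probe sets with 1 gene symbol and 10 of 19775 genes. The values come from 2 oligonucleotide arrays of DLD-1 cells, an established line from a human colorectal carcinoma with a mutated p53 of its own, stably transfected with a tet-off construct for wild-type p53. The p53 on array was made from cells cultured for 9 h without tetracycline. The p53 off array was made from cells kept in tetracycline, which silences the transgene. Each array reads RNA from a whole culture, so fewer expressing cells and less RNA per cell cannot be told apart. Both groups carry the construct, and the labels do not say whether the line is a single clone. Each condition has 1 array, so no difference below has a replicate check, a standard error or a test, and genes are described by the size of the ratio alone.

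mTORC1 is the protein kinase complex that drives protein synthesis and cell growth and holds back autophagy when nutrients and growth factors are at hand. The genes described here act upstream of it as brakes. Sestrins bind the GATOR2 complex and keep the Rag GTPases from bringing mTORC1 to the lysosome, and they also promote AMPK activity. DDIT4 acts through TSC1 and TSC2, which together switch off the small GTPase RHEB, the direct activator of mTORC1, and AMPK phosphorylates TSC2 and the mTORC1 subunit RPTOR when energy is low. SESN1, SESN2, DDIT4, PRKAB1 and TSC2 are known p53 target genes, which is background to the comparison and not a result of it.

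The comparison asks which of these brakes differed in transcript signal when wild-type p53 was switched on. DDIT4 and SESN1 stood out, 16.0-fold and 6.72-fold higher with p53 on. DEPTOR and the AMPK beta 1 gene PRKAB1 were higher by little more than 2-fold on their brightest probe sets. SESN2 and the beta 2 gene PRKAB2 were higher by less than 2-fold. TSC1 and TSC2 differed by about 1.3-fold in opposite directions, PRKAA1 was lower with p53 on, and SESN3 was too dim to compare.

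Of the 26 probe sets, 16 were measured, meaning that at least 1 of the 2 signals reached a floor of 112.4, the median of all signals that were not controls. Among them, 4 were higher with p53 on by 2-fold or more, 1 was lower by that size and 11 lay between. Over all 32151 measured probe sets, 14.0% were higher and 11.9% lower by 2-fold or more. With each gene represented by its brightest probe set, 4 of the 9 measured ones passed 2-fold upward with p53 on, 0 passed it downward, and 5 lay between. Over all 13915 measured genes the shares were 15.3% and 13.5%. After loess, SESN2 and PRKAB2 passed 2-fold upward too, which made 6 of 9, against 2121 of all 13915 genes. The mean over a gene's probe sets gave 3, against 1755 of all genes. A pseudocount equal to the floor also gave 3, against 2036 of 19775 genes. Scaling to the spike-ins described below gave 2 higher and 2 lower, against 722 and 5382 of 12519 genes. As reported, the median log2 ratio of the 9 genes was 0.90, against 0.0035 for all measured genes. The members were picked with earlier results of these arrays known, and several are established p53 targets, so their count is not independent evidence of a direction.

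The arrays differed in ways that touch every ratio. Each had been scaled to the same trimmed mean, 499.9. The 18 hybridization spike-in probe sets had a median p53 on to p53 off ratio of 1.89. The ratio of 3' to 5' signal for beta-actin was 7.29 with p53 on, against 1.37 with p53 off. Ratios below are therefore relative to the bulk of genes. With 1 factor per array from the spike-ins, the median over all measured genes was a log2 ratio of -0.83, and SESN2, TSC1 and PRKAB2 changed sign. The files do not give where along a transcript each probe set lies, and the part of the 3' signal difference in the ratios was not tested. All 7 epithelial markers examined were above the floor on both arrays, at 461.3 to 57770 with p53 on and 689.7 to 33330 with p53 off, and summed to 172200 with p53 on and 107000 with p53 off. CDX2, a colon transcription factor, went against that sum, at 461.3 with p53 on and 689.7 with p53 off. The 3 leukocyte markers with a probe set were under the floor on both. Markers of other cell types were dim, and single markers differed in both directions. The 5 fibroblast markers summed to 677.8 with p53 on and 335.8 with p53 off, with 3 of 5 measured. The 4 endothelial markers summed to 541.7 with p53 on and 230.2 with p53 off, with 3 of 4 measured. Both sums include signals under the floor. Each sum takes the same probe sets on both arrays, and its brightest ones weigh most. Among these markers COL1A2, COL3A1 and KDR were lower with p53 on, as was the leukocyte marker PTPRC. The part of the markers in the ratios was not tested.

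**Figure D1:**
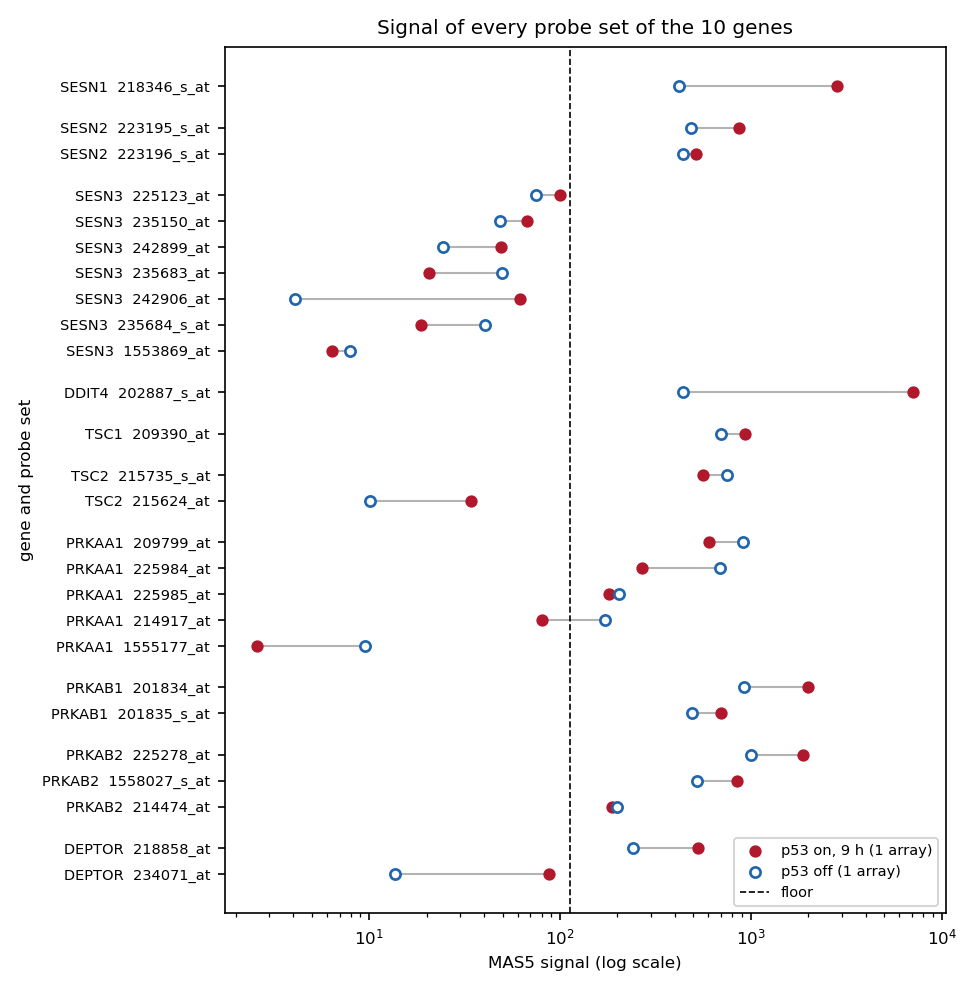
MAS5 signal of each of the 26 probe sets on the p53 on array (filled red) and the p53 off array (open blue), on a log axis, with the floor of 112.4 as a dashed line. The widest gaps above the floor are those of DDIT4 (7064 and 440.8) and SESN1 (2814 and 418.7), and all 7 SESN3 probe sets lie left of the floor on both arrays.

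Sequence upstream of the annotated gene starts was examined because DDIT4 and SESN1 had the largest ratios. RefSeq promoter windows on GRCh38.p14 were taken by symbol for 9 of the 10 genes, and DEPTOR was left out of this search. There were 12 windows in all because SESN1 has 3 starts and TSC2 has 2. The 250 bases before each start were searched on both strands for the p53 half-site consensus of 10 bases, which reads the same on both strands, and for ACGTG, the core of the hypoxia response element. DDIT4 is known to be induced by hypoxia as well as by p53. The exact p53 half-site occurred in 1 of the 12 windows and in 5.57% of all 35116 windows. That window lies before the SESN1 start that is innermost in the gene, and the match covers bases 49 to 40 upstream of the start. No window of the 9 genes held 2 such half-sites within 13 bases of each other with at most 2 mismatches in all, which 2.49% of all windows did. The core C and G of each half-site had to match, so mismatches were allowed at the other bases only. The 30 bases around the SESN1 match, on the minus strand at chr6:109009018-109009047, are shown with the half-site in capitals. ACGTG occurred in 2 of the 12 windows, those of DDIT4 and of 1 TSC2 start, and in 18.5% of all windows. The TSC2 match overlaps the E-box CACGTG. The DDIT4 window, on the plus strand at chr10:72273674-72273923, is shown in full with ACGTG in capitals, at bases 125 to 121 upstream of the start, because this gene had the largest ratio.
SESN1 half-site: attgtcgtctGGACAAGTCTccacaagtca
DDIT4 upstream: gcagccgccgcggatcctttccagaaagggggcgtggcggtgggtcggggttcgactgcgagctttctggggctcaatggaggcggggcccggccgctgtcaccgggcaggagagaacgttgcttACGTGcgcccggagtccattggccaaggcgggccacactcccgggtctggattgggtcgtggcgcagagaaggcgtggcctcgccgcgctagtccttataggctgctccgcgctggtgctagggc
These matches are letters in short windows. They do not show binding, and elements in introns or farther upstream lie outside them.

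DDIT4 is a small stress-induced protein that restrains mTORC1 through the TSC1 and TSC2 complex. Its 1 probe set read 7064 with p53 on and 440.8 with p53 off, a 16.0-fold difference and a log2 ratio of 4.0. Both signals were well above the floor. The gene ranked 57th from the top of 13915 measured genes, within the highest 0.41%. Its log2 ratio was 3.70 to 4.25 under 9 settings that keep the probe set and leave the spike-ins aside, and 3.08 with spike-in scaling. Among the 9, the other percentile floors and the mean over probe sets could only return the reported value.

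SESN1, the sestrin first known as the p53-activated gene PA26, read 2814 on its 1 probe set with p53 on and 418.7 with p53 off. It was 6.72-fold higher, at a log2 ratio of 2.75 and rank 267 of 13915. Under the same 9 settings its log2 ratio ran from 2.46 to 3.01, and it was 1.83 with spike-in scaling. The only DDIT4 and SESN1 probe sets both carry the suffix _s_at, which marks probes shared by several transcripts. The annotation gives each a single gene symbol. No second probe set is there to compare with either.

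SESN2, the sestrin that acts as a leucine sensor for GATOR2, did not reach 2-fold as reported. Its brighter probe set read 872.1 with p53 on and 487.3 with p53 off, a log2 ratio of 0.84. The other read 517.8 with p53 on and 440.7 with p53 off, a log2 ratio of 0.23. Both were higher with p53 on and were 0.61 apart on the log2 scale, close to the median range of 0.58 among all genes with 2 measured probe sets. After loess on mean signal the brighter probe set was at 1.05, past 2-fold, and with spike-in scaling it was at -0.079.

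SESN3, the family member known to be induced by FOXO factors, had 7 probe sets and none reached the floor on either array. Their signals lay between 6.35 and 100.2 with p53 on and between 4.06 and 75.0 with p53 off. The p53 on signal was the higher one in 4 and the lower one in 3. The widest gap was 61.5 with p53 on and 4.06 with p53 off, on a single probe set, while the brightest probe set read 100.2 with p53 on and 75.0 with p53 off. No ratio is given at this brightness. SESN1, SESN2 and SESN3 thus differed in what could be read, and the difference between them was not tested.

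**Figure D2:**
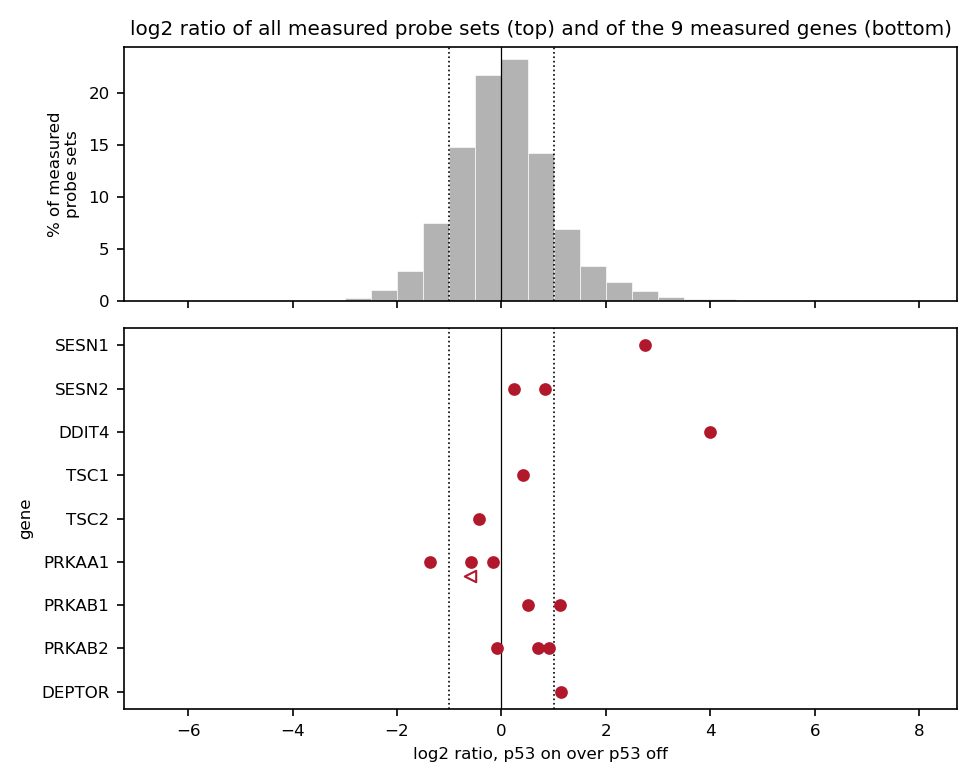
Top, the share of all 32151 measured probe sets in each half-unit bin of the log2 ratio of p53 on over p53 off. Bottom, the same ratio for each measured probe set of the 9 genes, with dotted lines at 2-fold and an open triangle for the PRKAA1 probe set whose ratio is a bound. DDIT4 at 4.0 and SESN1 at 2.75 lie in the right tail, above 99.8% and 98.7% of measured probe sets, and the other points lie between -1.36 and 1.14.

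TSC1 and TSC2, hamartin and tuberin, form the GTPase-activating complex through which DDIT4 and AMPK act. TSC1 read 934.1 with p53 on and 701.7 with p53 off on its 1 probe set, a log2 ratio of 0.41. TSC2 read 560.3 with p53 on and 750.6 with p53 off, a log2 ratio of -0.42. Neither came near 2-fold, and they pointed in opposite directions. A second TSC2 probe set was under the floor on both arrays, at 34.1 with p53 on and 10.1 with p53 off. With spike-in scaling TSC1 was at -0.51 and TSC2 at -1.34. TBC1D7, a further subunit of the same complex, was also lower with p53 on, at 633.9, against 1218 with p53 off, a log2 ratio of -0.94.

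AMPK is built from a catalytic alpha, a scaffolding beta and a nucleotide-binding gamma subunit. The alpha 1 gene PRKAA1 was lower with p53 on in all 4 of its measured probe sets. The brightest read 600.7 with p53 on and 905.5 with p53 off, 1.51-fold lower, and the next 269.0 with p53 on and 690.3 with p53 off, 2.57-fold lower. The third read 180.2 with p53 on and 202.6 with p53 off, a log2 ratio of -0.17. The fourth read 80.1 with p53 on, under the floor, and 171.6 with p53 off, so it was at least 1.53-fold lower. The remaining probe set was under the floor on both arrays, at 2.60 with p53 on and 9.50 with p53 off. The ratios of 1 transcript thus spanned 1.19 on the log2 scale, close to the median range of 1.18 among genes with 4 measured probe sets, and a single probe set of the 4 passed 2-fold.

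The beta subunit genes were higher with p53 on. PRKAB1 read 2000 with p53 on and 922.3 with p53 off on its brightest probe set, 2.17-fold higher, and 699.4 with p53 on and 489.2 with p53 off on the other, 1.43-fold higher. Averaged over both, its log2 ratio was 0.82, which is under 2-fold. PRKAB2 read 1871 with p53 on and 1001 with p53 off, a log2 ratio of 0.90, and 849.8 with p53 on and 523.0 with p53 off on a second probe set, a log2 ratio of 0.70. Its dimmest probe set differed in sign, at 186.2 with p53 on and 198.5 with p53 off. After loess PRKAB2 was at 1.16, past 2-fold. With spike-in scaling the log2 ratio was 0.20 for PRKAB1, -0.017 for PRKAB2 and -1.51 for PRKAA1.

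Among the other AMPK subunits, the alpha 2 gene PRKAA2 was not measured. The gamma 1 gene PRKAG1 was lower with p53 on, at 675.0, against 1185 with p53 off, a log2 ratio of -0.81. The gamma 2 gene PRKAG2 read higher by 2.13-fold on the brightest of its probe sets, at 579.1 with p53 on and 272.0 with p53 off, but its 3 probe sets ranged from 0.077 to 1.09 on the log2 scale. PRKAG3, the gamma 3 gene, was dim, at 59.3 with p53 on, under the floor, and 135.9 with p53 off. Its ratio is a bound, at least 1.21-fold lower. On their brightest probe sets the subunits thus differed in both directions, with the beta genes and PRKAG2 higher and PRKAA1 and PRKAG1 lower. PRKAG3 was lower too, but close to the floor.

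DEPTOR binds mTOR directly and inhibits it. Its brighter probe set read 530.7 with p53 on and 241.3 with p53 off, 2.20-fold higher, at rank 1792 of 13915 genes. The other read 87.3 with p53 on and 13.7 with p53 off, both under the floor, so it gives no ratio. The first passed 2-fold in 9 of 11 settings. It did not with a pseudocount equal to the floor (0.86) or with spike-in scaling (0.22).

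**Figure D3:**
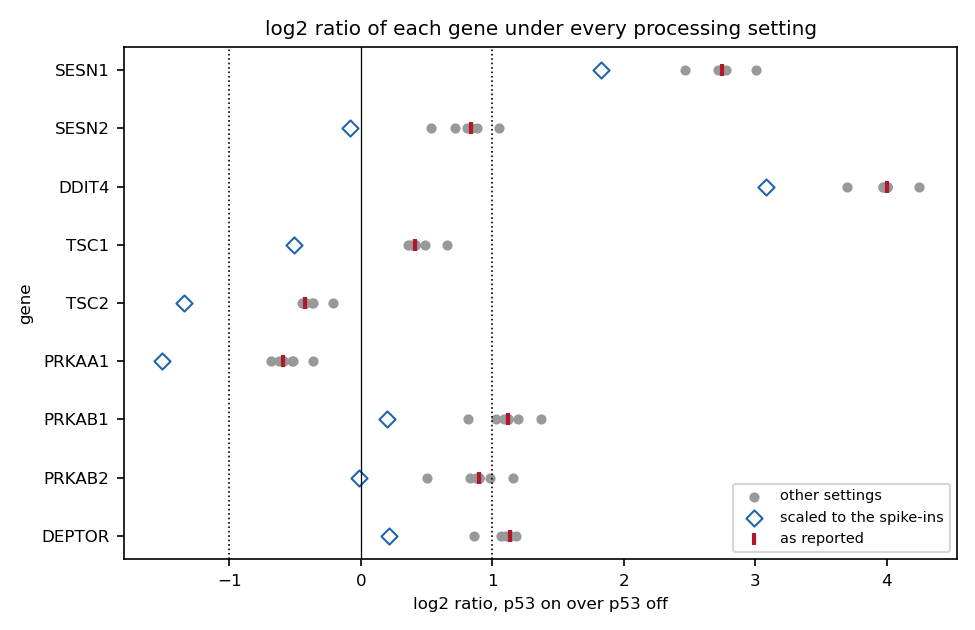
The log2 ratio of p53 on over p53 off for each measured gene as reported (red bar), under the other processing settings (grey points) and after spike-in scaling (open diamond), with dotted lines at 2-fold. DDIT4 and SESN1 stay right of the 2-fold line under every setting drawn, while PRKAB1 and DEPTOR fall under it in some. SESN2 and PRKAB2 pass it after loess, and TSC2 and PRKAA1 pass the lower line with spike-in scaling.

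The rest of the pathway was read from 8 lists of genes. Together they held 93 genes, of which 82 were measured, 17 past 2-fold upward with p53 on and 19 past it downward, with a median log2 ratio of -0.31. Over all 13915 measured genes, 15.3% were past 2-fold upward and 13.5% downward, and each list count below is to be read beside these shares. No list was tested against them. The lists were chosen with earlier results of these arrays known, so their counts are not independent evidence. Another 7 of the 93 were not analysed here.

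Kinases that activate AMPK and their partners had 2 of 8 genes past 2-fold upward with p53 on and 0 downward, with a median of 0.63 that was 0.23 to 0.89 across settings without spike-in scaling and -0.28 with it. STRADB, a pseudokinase partner of LKB1, was 2.87-fold higher at 559.3 with p53 on and 194.9 with p53 off. STK11, the gene of LKB1 itself, was 2.84-fold higher on the brightest probe set, but its 3 measured probe sets ran from -0.75 to 1.51. CAB39, the scaffold of the LKB1 complex, was lower at 2149 with p53 on and 4104 with p53 off, a log2 ratio of -0.93.

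Among GATOR and nutrient sensing genes, on which the sestrins act, 2 of 15 were past 2-fold upward and 3 downward. The list median was -0.35, or -1.19 with spike-in scaling. CASTOR2, a paralogue of the arginine sensor CASTOR1, was 4.32-fold higher at 2067 with p53 on and 478.1 with p53 off. KICS2 and ITFG2, subunits of the KICSTOR complex that holds GATOR1 at the lysosome, were 4.03-fold and at least 4.15-fold lower on their brightest probe sets. All measured KICS2 probe sets were lower, at log2 ratios from -2.01 to -0.35, whereas those of ITFG2 ran from -2.05 to 1.10. The 5 GATOR2 genes encode the complex that sestrins bind. On their brightest probe sets, MIOS was higher with p53 on, at a log2 ratio of 0.96, and the other ones were lower. The 3 MIOS probe sets ran from 0.72 to 1.31. WDR24 read 81.9 with p53 on, under the floor, and 227.9 with p53 off and was at least 2.03-fold lower. SEC13, SEH1L and WDR59 were at log2 ratios of -0.66, -0.27 and -0.29, and the 3 WDR59 probe sets ran from -0.29 to 0.067.

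The Rag GTPases and their lysosomal scaffold had 5 of 11 genes past 2-fold downward and 2 upward. The list median was -0.65, or -1.56 with spike-in scaling. LAMTOR3, LAMTOR4 and LAMTOR5 are subunits of the Ragulator scaffold. LAMTOR4 had a log2 ratio of -1.13 on its single measured probe set. LAMTOR3 was at -1.05 on the brighter of 2 measured probe sets and at -0.28 on the other. The same pair for LAMTOR5 was -1.12 and -0.61, so the dimmer probe set of each stayed under 2-fold. RRAGA, a Rag GTPase, was 2.49-fold lower at 1489 with p53 on and 3712 with p53 off. RRAGC, its dimer partner, was 3.74-fold higher at 4626 with p53 on and 1237 with p53 off. All 3 RRAGC probe sets were higher, at log2 ratios from 0.38 to 1.90. FLCN, a GTPase activator for RRAGC, was at least 3.01-fold lower on its brightest probe set, but another was at 0.81.

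On their brightest probe sets, 0 of 11 genes of the mTOR complexes were past 2-fold upward and 3 downward. Their median was -0.54, or -1.34 with spike-in scaling. Other probe sets reached log2 ratios of 1.27 for PRR5L and 1.08 for MAPKAP1, and of -1.67 for TELO2 and -2.07 for RHEB. RICTOR, the subunit that defines mTORC2, was 2.91-fold lower at 431.7 with p53 on and 1254 with p53 off. Its 3 probe sets ran from -1.54 to -0.61. MLST8, shared by both complexes, was 2.48-fold lower, and AKT1S1, the inhibitory mTORC1 subunit PRAS40, was 2.23-fold lower. MTOR itself was at 0.41 on its single measured probe set. RHEB, the GTPase that TSC2 switches off, was at -0.81 on its brightest probe set and lower on all 6, from -2.07 to -0.24.

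Substrates and outputs of mTORC1 divided, with 4 of 14 past 2-fold upward, 3 past it downward and a median of -0.045. That median was between -0.41 and 0.33 across settings without spike-in scaling and -0.96 with it. TFEB, a transcription factor of lysosome genes that mTORC1 holds in the cytosol, read 949.1 with p53 on and 29.3 with p53 off and was at least 8.45-fold higher, but its other measured probe set was at 0.054. ULK1, the kinase that starts autophagy and is inhibited by mTORC1, was at least 7.78-fold higher at 874.7 with p53 on and 107.5 with p53 off. EIF4E, the cap-binding protein released when mTORC1 phosphorylates its binding proteins, was 3.58-fold lower at 1064 with p53 on and 3807 with p53 off. All 4 of its probe sets were lower, at log2 ratios from -1.84 to -0.42. RPS6KB1, the S6 kinase gene, was 2.43-fold lower.

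The growth factor input to mTORC1 held the largest ratios among the lists, with 6 of 14 genes past 2-fold upward, 3 downward and a median of 0.38, or -0.54 with spike-in scaling. PIK3R3, a regulatory subunit of phosphoinositide 3-kinase, was 19.8-fold higher at 3384 with p53 on and 170.9 with p53 off, though its other probe set was at 0.93. IGF1R and INSR, the receptors for insulin-like growth factor and insulin, were 11.6-fold and 8.81-fold higher on their brightest probe sets. All 4 measured probe sets of each were higher, at log2 ratios from 0.62 to 3.54 for IGF1R and 1.26 to 3.14 for INSR. The adaptor genes differed in sign, IRS2 being 6.86-fold higher and IRS1 3.09-fold lower on their brightest probe sets. Probe sets of IRS2 ran from 1.72 to 2.78 and those of IRS1 from -2.59 to -0.51. AKT2 was at least 6.59-fold lower on its brightest probe set, whereas another was at 0.47. IRS1, IRS2 and AKT2 lie outside the 3 largest of their list and were picked with their values in view.

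The last list holds partners of SESN2 in the antioxidant NRF2 route, where SESN2 is known to promote the removal of KEAP1 by autophagy. Of 5 genes, 2 were past 2-fold downward and 0 upward, with a median of -0.98, or -1.9 with spike-in scaling. KEAP1, the adaptor that marks NRF2 for degradation, was 6.36-fold lower at 306.3 with p53 on and 1947 with p53 off on its single probe set. RBX1, a ring subunit of the same ligase, was 2.28-fold lower. SRXN1, the NRF2 target sulfiredoxin, was at -0.98. SQSTM1, the autophagy receptor p62, was at -0.097 on its brightest probe set and up to 2.05 on another.

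**Figure D4:**
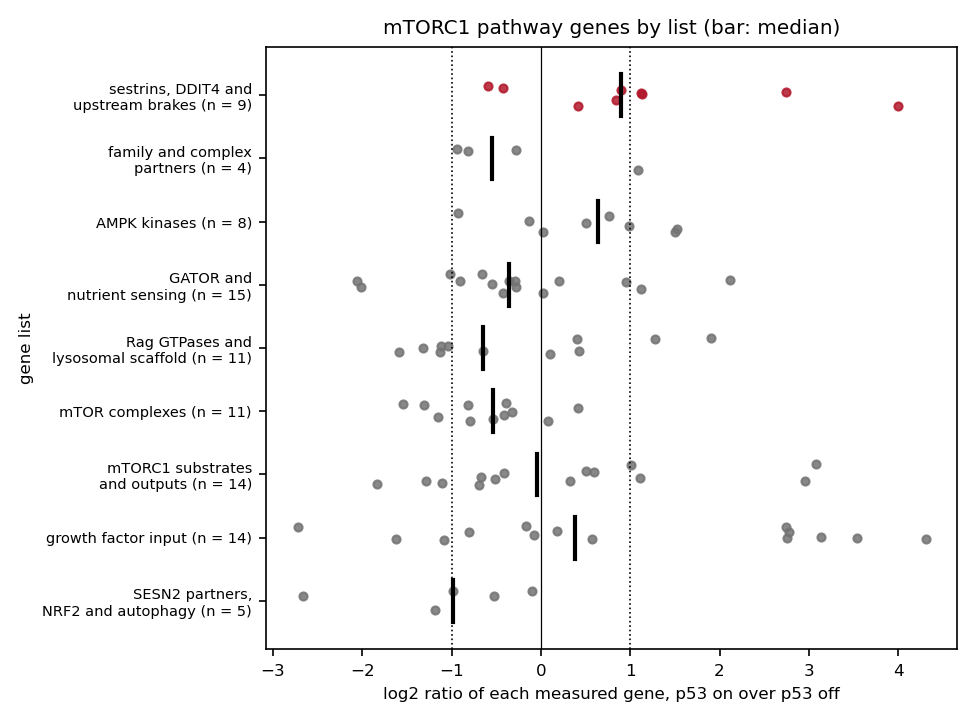
The log2 ratio of p53 on over p53 off for each measured gene, by list, with a black bar at the list median and dotted lines at 2-fold. The top group, the sestrins, DDIT4 and the other upstream brakes, has its median at 0.90, and the growth factor input reaches 4.31 with PIK3R3. On the brightest probe sets drawn, no gene of the mTOR complexes lies right of the upper 2-fold line.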

How the data were processed

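The authors deposited 1 linear signal intensity per probe set and array, from MAS5 according to the submitters' processing notes, whose version and settings were not stated there. Each deposited column held 54613 probe sets beside 62 controls. Arrays have no read depth, and their number, 1 per condition, limits the precision.

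Gene names came from the platform annotation in GEO and were brought to current RefSeq symbols by Entrez identifier (41037 of 41091 found). Signals under the floor of 112.4 (the 50th percentile) were set to it. A ratio with 1 signal under it is a bound, and with both there is none. The brightest probe set, by mean of both signals, stood for a gene. No normalization was added, and no test was run.

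The members, lists and settings were chosen with earlier results of these data known. The named genes are all probe sets of the members, up to 3 genes per list with the largest ratios past 2-fold. The rule also named genes nearest in signal to DDIT4 and SESN1, which are left out because signals of different probe sets are not comparable. List genes outside this rule (TBC1D7, PRKAG1, PRKAG3, CAB39, MIOS, WDR24, SEC13, SEH1L, WDR59, LAMTOR3, LAMTOR4, LAMTOR5, MTOR, RHEB, PRR5L, MAPKAP1, TELO2, RPS6KB1, IRS1, IRS2, AKT2, SRXN1 and SQSTM1) were named after their values were seen.

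Other settings were a 40th or 60th percentile floor, a pseudocount of 1 or of the floor in place of the floor, centring, quantile normalization, loess (span 0.3), spike-in scaling, leaving out probe sets ending in _x_at or _s_at, the mean over a gene's probe sets, and a 1.5-fold threshold. The calculation was tested on simulated data. The induction of p53 itself was not checked here. Python 3.11.15, numpy 2.4.6, pandas 2.3.3, statsmodels 0.14.6 and matplotlib 3.10.9 were used.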

Additional observations from a re-analysis of the deposited data

Results flagged for a closer look

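Probe sets for control transcripts, used in no comparison of genes, read differently on the 2 arrays. The ratio of 3' to 5' signal was 7.29 for beta-actin and 1.77 for GAPDH with p53 on, against 1.37 and 0.974 with p53 off. Over 18 spike-in probe sets the p53 on to p53 off ratio had a median of 1.89 and lay between 1.47 and 2.59. Their part in the ratios of DDIT4, SESN1 and the AMPK subunits was not tested.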

How the results depend on the processing

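None of the 11 alternatives turned the sign of a gene of the sestrin, DDIT4, TSC, AMPK and DEPTOR group that was past 2-fold. Several of them could not have done so. The 1.5-fold threshold changes no ratio. The mean over a gene's probe sets could not change SESN1, DDIT4 or DEPTOR, each with 1 measured probe set. A floor at another percentile left the ratios of SESN1, DDIT4, PRKAB1 and DEPTOR as they were, because both signals of each lay above it. Apart from spike-in scaling, 0 of the log2 ratios of the group's genes and their probe sets moved by as much as 0.84. That yardstick is a standard deviation equivalent pooled over all genes. It comes from the median absolute difference in log2 ratio between other measured probe sets and the brightest of their gene. DDIT4 and SESN1 were past 2-fold in all 10 settings that gave them a value, the reported one included. Without probe sets ending in _x_at or _s_at, SESN1, SESN2, DDIT4 and TSC2 had no value. That setting left 2 probe sets and 2 genes of the group at least 2-fold higher, and 2070 of all probe sets at least 2-fold lower. The number of probe sets and genes compared differs by setting, so these counts are not shares of the totals as reported. Measured genes numbered 13915 as reported, 11053 without those probe sets and 12519 with spike-in scaling. With spike-in scaling the group had 2 probe sets higher and 3 lower and 2 genes higher and 2 lower. The 8 lists had 9 higher and 45 lower, all probe sets 1318 higher and 10642 lower, and all genes 722 higher and 5382 lower. With a pseudocount of 1 and no floor, signals under the floor count too, which takes in all 26 probe sets of the group and 19775 genes. The group then had 7 probe sets higher and 5 lower. All probe sets had 13528 higher and 10605 lower, and all genes 4741 higher and 3666 lower. Loess gave 6 genes of the group higher, adding SESN2 (1.05) and PRKAB2 (1.16). With spike-in scaling the medians of the AMPK kinase and growth factor lists turned negative. The floor at the 40th percentile gave 2 probe sets of the group lower. At 1.5-fold the group had 7 probe sets higher and 3 lower and 6 genes higher and 1 lower, the lists 21 higher and 31 lower, all probe sets 8071 higher and 7651 lower, and all genes 3605 in each direction. The causes were not tested, except that a lower threshold passes more by construction. No paired analysis was possible because each condition has 1 array. Dim transcripts such as SESN3 cannot be compared at this signal.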
